A study of Arabidopsis thaliana with 18 samples.

Results

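C24 and Ler are natural accessions of Arabidopsis thaliana, that is, inbred lines descended from different wild or early laboratory stocks. The comparison set 3 libraries of C24 rosettes against 3 libraries of Ler rosettes (labelled Ler-0), which are 6 of the 18 libraries of the series. Libraries were assigned to accessions by the sample labels, and the table gave 37336 gene rows for each. Both groups were wild type and carried no transgene. Plants had 3 days of cold stratification, grew on Gamborg's B-5 medium, moved to soil mix at day 14 and were had rosette tissue harvested at day 21, under 16 h light and 8 h dark at 21 °C. Each library pooled 6 to 10 plants, and the design text calls the libraries biological replicates. Another 12 libraries served as a check: 3 of the F1 hybrid of C24 and Ler, 3 of Ler with the NahG transgene, and 6 of the C24 background sequenced at a later stage (2 of wild-type C24, there named C24B, and 2 of each of 2 NahG lines). NahG encodes a bacterial salicylate hydroxylase that removes salicylic acid.

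Accessions differ in many sequence variants, in whole genes gained or lost, and in the timing of the change to flowering. Immune receptor genes and the genes that shape glucosinolates, the defence compounds of the cabbage order, are known for high variation among accessions. Ler takes its name from the erecta mutation, a change in the receptor kinase ERECTA that gives compact plants. Reads of all libraries were aligned to one reference genome, so a gene can have few reads because it is silent, because it is missing from the accession, or because its sequence is too far from the reference for reads to align. Those cases cannot be told apart from counts.

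Reads assigned to genes numbered 22446656 to 25706088 in the C24 libraries and 22734552 to 23286016 in the Ler libraries. The share of unmapped reads was 2.98% to 9.32% in C24, with the highest in C24 replicate 1, and 2.89% to 3.77% in Ler. The root mean square distance between libraries on the log2 scale was 1.38 to 1.47 between accessions, 0.295 to 0.31 within C24 and 0.508 to 0.68 within Ler. Ler replicates were thus farther from each other than C24 replicates were, and every pair across accessions was farther apart than any pair within one. All 42 nuclear photosynthesis genes used as leaf markers had reads in every library.

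Of 20325 genes tested, 8604 (42.3%) differed between C24 and Ler at an adjusted p under 0.05, of which 4597 (22.6% of tested genes) were higher in C24 and 4007 (19.7%) lower. A difference of at least 2-fold was called for 3944 genes (19.4%), 2173 of them higher (10.7%) and 1771 lower (8.71%) in C24. For 11332 genes (55.8%) all libraries of one accession lay above all those of the other. The median log2 difference (C24 minus Ler) over all genes tested was -0.01, and the quartiles were -0.34 and 0.34. Tests were edgeR quasi-likelihood F tests with Benjamini-Hochberg adjustment over all genes tested, levels are CPM (read counts scaled to a common library size), and differences are fitted log2 values with their standard error (SE).

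**Figure D1:**
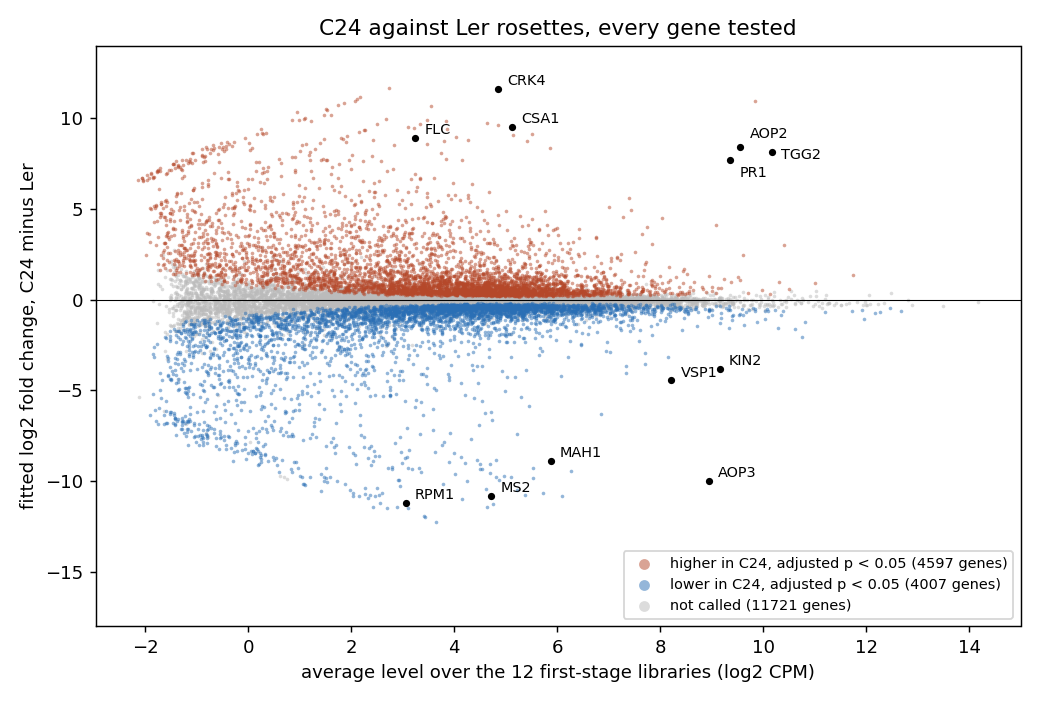
Fitted log2 difference (C24 minus Ler, vertical axis) of each of the 20325 genes tested against its average level (log2 CPM over 12 libraries, horizontal axis). Red points are the 4597 genes called higher in C24, blue points the 4007 called lower and grey points those not called. The widest differences reach past 8 on the log2 scale also among well-read genes such as AOP2, TGG2 and AOP3.

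Some of the widest differences lay in genes of high level. AOP2 (AT4G03060), which encodes a dioxygenase that converts side chains of aliphatic glucosinolates to alkenyl forms, had 1947, 1750 and 1964 CPM in C24, against 6.3, 5.17 and 5.12 CPM in Ler, a difference of 8.41 (SE 0.15, adjusted p = 4.5e-12). Its neighbour in the reference, AOP3 (AT4G03050), a related dioxygenase that makes hydroxyalkyl forms, had 0.64, 0.823 and 0.611 CPM in C24, against 744, 681 and 688 CPM in Ler (difference -9.98, SE 0.17, adjusted p = 4.5e-12). The pair thus ran in opposite directions, and no library of one accession came near the range of the other for either gene. TGG2 (AT5G25980), a myrosinase that cleaves glucosinolates on wounding, had 2972, 2779 and 2914 CPM in C24 and 11.9, 9.68 and 9.05 CPM in Ler (difference 8.15, SE 0.18, adjusted p = 2.9e-11). AT2G25510, annotated as an uncharacterized protein and picked here after its values were seen, had 3012, 3427 and 2766 CPM in C24 and 2.5, 0.79 and 1.35 CPM in Ler (difference 10.97, SE 0.41, adjusted p = 2.8e-09). ARGAH2, an arginase gene also picked after its values were seen, had 0.0853, 0.196 and 0 CPM in C24 and 83, 52.7 and 42 CPM in Ler (difference -9.26, from -10.38 without C24 replicate 2 to -8.64 without C24 replicate 3).

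**Figure D2:**
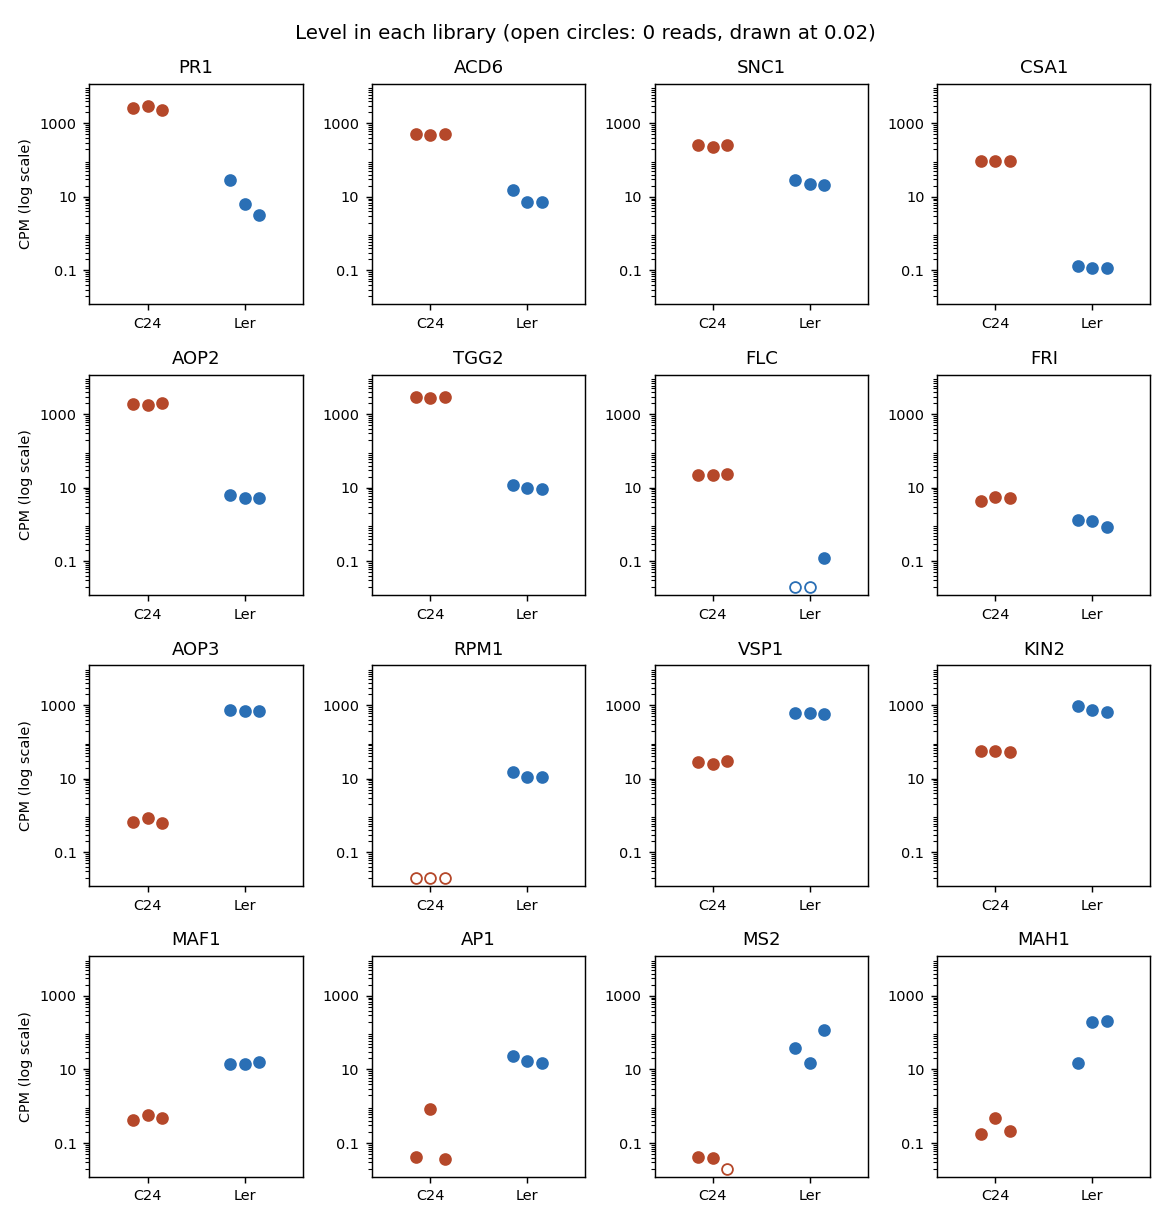
Level of 16 genes in each of the 3 C24 libraries (red, left) and 3 Ler libraries (blue, right), as CPM on a log axis. Each point is a library, and open circles mark libraries with 0 reads, drawn at 0.02. The groups do not overlap for any of the 16 genes.

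The other groups showed the same split by parent for AOP2, AOP3 and TGG2. The hybrid and Ler NahG libraries shared the fit that called these genes, and the 6 later C24 libraries did not. AOP2 averaged 1467 ± 475 CPM in C24B (SD, n = 2), 2600 ± 112 CPM in C24 NahG 2 and 3373 ± 92.7 CPM in C24 NahG 3 (n = 2 each), against 5.01 ± 0.179 CPM in Ler NahG (n = 3). AOP3 had at most 0.0957 CPM in those 6 later C24 libraries and 744 ± 28.1 CPM in Ler NahG. The hybrid read both, with 1120 ± 62.4 CPM for AOP2 and 534 ± 60.9 CPM for AOP3 (SD, n = 3). TGG2 likewise stood at 3840 to 5953 CPM in the later C24 libraries and at 1715 ± 68 CPM in the hybrid, against 8.45 ± 1.34 CPM in Ler NahG. CPM of the later libraries were scaled apart from the first stage, so only their order of size is compared.

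**Figure D3:**
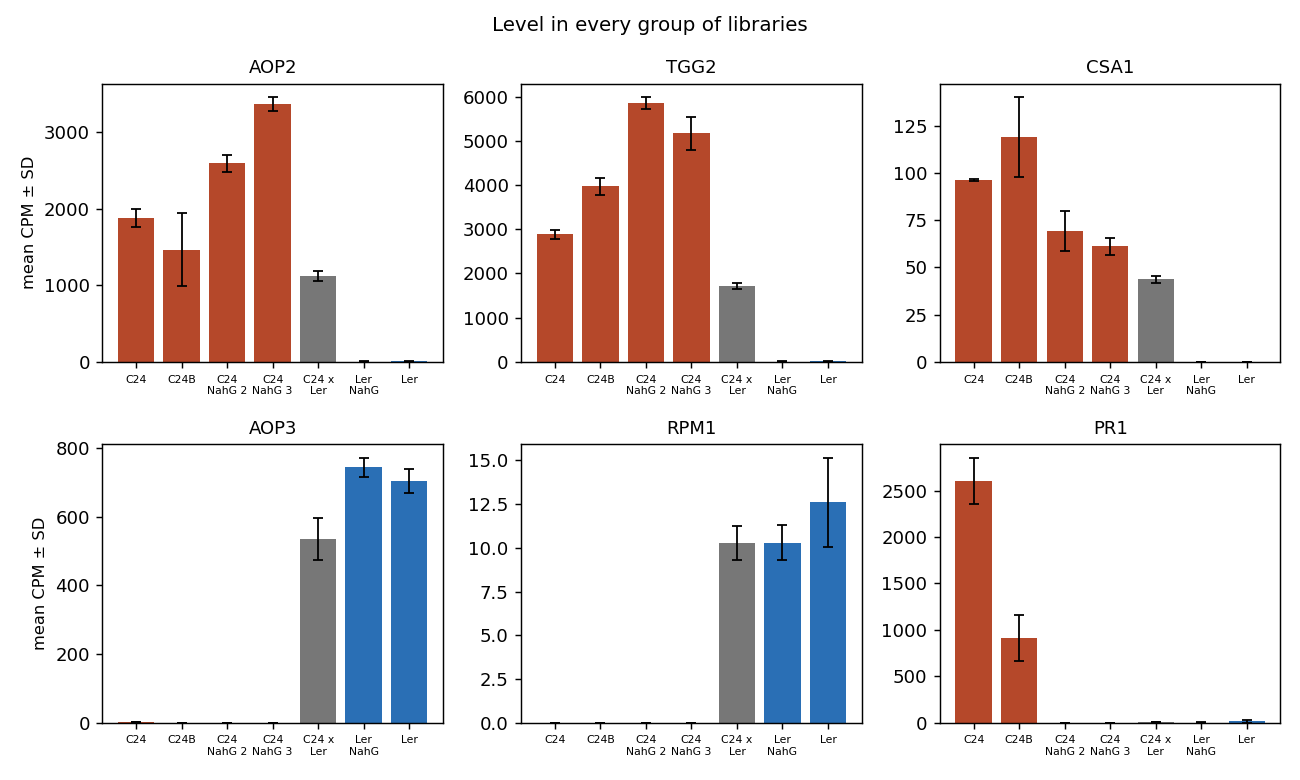
Mean level (CPM, bars, with the SD over libraries as lines) of 6 genes in each group, from the C24 background (red) through the F1 hybrid (grey) to the Ler background (blue). Groups hold 3 libraries except the later C24 groups, which hold 2. AOP2, TGG2 and CSA1 are read in every C24 group and the hybrid, AOP3 and RPM1 in every Ler group and the hybrid, while PR1 is high in C24 and C24B and low in all other groups.

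Genes that respond to salicylic acid, the hormone of defence against biotrophic pathogens, stood far higher in C24. All 26 members of the response list were called, beside 42.3% of all genes tested. Of these 26, 25 were higher and 1 lower in C24, with a median log2 difference of 4.29. This list was written with earlier results of these data known, so its direction is a description. PR1 (AT2G14610), a secreted antimicrobial protein and the standard marker of the response, had 2574, 2870 and 2369 CPM in C24, against 28.4, 6.44 and 3.25 CPM in Ler (difference 7.69, SE 0.77, adjusted p = 2.1e-05). Ler replicate 1 was the highest of its group by more than the range of the others, and the difference without it was 9.07. PR2, a beta-1,3-glucanase, had 463, 476 and 444 CPM in C24 and 20.3, 9.87 and 10 CPM in Ler (difference 5.11, SE 0.35, adjusted p = 6.8e-07). PR5, a thaumatin-like protein, averaged 628 CPM in C24 and 20.3 CPM in Ler (difference 4.96, and 5.61 without Ler replicate 1). ACD6 (AT4G14400), an ankyrin-repeat membrane protein that sets the level of salicylic acid signalling, had 507, 491 and 504 CPM in C24 and 15.7, 7.31 and 7.3 CPM in Ler (difference 5.64, SE 0.33, adjusted p = 1.5e-07). The member that was lower in C24 was ECS1, with 17.1, 19 and 17.3 CPM in C24 and 204, 91.9 and 100 CPM in Ler.

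The synthesis and signalling genes of the hormone followed with smaller differences, with a median of 1.2. Of 21 tested, 14 were higher in C24, 3 lower and 4 not called (81% called, beside 42.3% of all genes). ICS1, the isochorismate synthase that supplies most salicylic acid, had 56.3, 59.9 and 54 CPM in C24 and 10.4, 10.5 and 9.17 CPM in Ler (difference 2.5, SE 0.12, adjusted p = 2.3e-08). Its regulator CBP60G averaged 40.3 CPM in C24 and 1.05 CPM in Ler, and EDS5, the transporter that exports the precursor from plastids, 32.8 CPM in C24 and 2.73 CPM in Ler. The receptors NPR1, NPR3 and NPR4 were higher in C24 by 1.2, 1.23 and 1.21. Lower in C24 were BSMT1, a methyltransferase of salicylic acid and benzoic acid, at 0.0557 CPM against 3.99 CPM in Ler (difference -6.11, from -7.37 without C24 replicate 1 to -5.51 without C24 replicate 3), the carboxylesterase SOBER1 (-1.04) and ICS2, the second isochorismate synthase (-0.96). In the hybrid PR1 averaged 7.09 ± 2.75 CPM and ACD6 158 ± 46.1 CPM (SD, n = 3), and both were under 2 CPM in every NahG group.

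Receptors and signalling parts of pattern-triggered immunity, the response to conserved microbial molecules, were called in 23 of 25 cases (92%, beside 42.3% of all genes). Of these, 21 were higher and 2 lower in C24, and the median over the list was 1.15. The flagellin receptor FLS2 averaged 44.7 CPM in C24 and 18.5 CPM in Ler (difference 1.27), and the receptor-like protein RLP23, which binds a peptide shared by bacteria, oomycetes and fungi, 58.3 CPM in C24 and 1.08 CPM in Ler (difference 5.77, SE 0.37, adjusted p = 4.3e-07). WAK1, a wall-associated kinase, had 541, 578 and 510 CPM in C24 and 57.8, 33 and 40.8 CPM in Ler. The NADPH oxidase RBOHD and the kinase MPK3 were higher by 1.13 and 1.15. The LysM protein LYM3 (-0.50) and the receptor PEPR1 (-0.30, adjusted p = 0.042) were lower in C24, and the call for PEPR1 was lost in 8 of 12 alternatives, with adjusted p up to 0.13. Chaperones of the endoplasmic reticulum, which fold secreted and membrane proteins, were higher in 14 of 17 cases and lower in none (82.4% called). Their median was 0.73. CRT3, a calreticulin needed to mature the receptor EFR, averaged 373 CPM in C24 and 65.3 CPM in Ler (difference 2.52, SE 0.11, adjusted p = 6e-09), and BIP1 and BIP2 were higher by 0.94 and 0.84. In the heat shock list 11 of 18 were higher and 2 lower (72.2% called). Among those higher was HSP90.1, at 25.5, 42 and 33.9 CPM in C24 and 6.98, 6.52 and 6.75 CPM in Ler.

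Intracellular immune receptors of the NLR class, which detect pathogen effectors inside the cell, were measured as 24 well-known genes and as the whole annotated family. Of the named genes 19 were higher in C24, 1 lower and 4 not called, with a median of 1.2. That is 83.3% called, beside 42.3% of all genes. SNC1 had 259, 233 and 250 CPM in C24 and 27.9, 22 and 20.8 CPM in Ler (difference 3.40, SE 0.16, adjusted p = 1.3e-08). CSA1 and DAR4, neighbouring genes with AGI numbers AT5G17880 and AT5G17890, were read almost in C24 alone: CSA1 had 95.7, 96.6 and 96.3 CPM in C24 and 0.134, 0.118 and 0.119 CPM in Ler, and DAR4 had 45.8, 45.3 and 41.9 CPM in C24 and 0.0447, 0.079 and 0.119 CPM in Ler. In the hybrid they averaged 43.6 ± 1.9 and 20.7 ± 3.69 CPM (SD, n = 3). RPM1 (AT3G07040), a coiled-coil receptor, went the other way, with 0 reads in C24 and 907 reads in Ler, and was at least 319-fold lower in C24 against a floor of 3 reads over the group. Not called were TAO1 (-0.30), RRS1 (0.15), SUMM2 (0.37) and RPP8, which had 94.4, 90.9 and 92.1 CPM in C24 and 88.3, 66.3 and 63.1 CPM in Ler (adjusted p = 0.065).

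Over the whole NLR family, 138 of 176 genes passed the filter on low counts, 92 were higher in C24 and 16 lower, and the median was 1.00 with quartiles of 0.30 and 2.5. A difference of at least 2-fold was called for 58.7% of those tested, beside 19.4% of all genes. AT1G58390, a coiled-coil family member, had 0 reads in C24 and 1.79, 1.58 and 1.35 CPM in Ler. Among 289 tested receptor-like kinase genes 141 were higher and 49 lower in C24 (median 0.46, 65.7% called, beside 42.3% of all genes). Of the cysteine-rich receptor-like kinases, CRK14 had 45.4, 48.4 and 44.6 CPM in C24 and 0.313, 0.118 and 0.0794 CPM in Ler, and CRK4 (AT3G45860) had 106, 108 and 95.9 CPM in C24 and 0.0894, 0 and 0 CPM in Ler. CRK4 stood at 1.23 ± 0.131 CPM in C24 NahG 2 and 0.747 ± 0.378 CPM in C24 NahG 3, beside 98.7 ± 26.6 CPM in C24B (SD, n = 2 each).

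**Figure D4:**
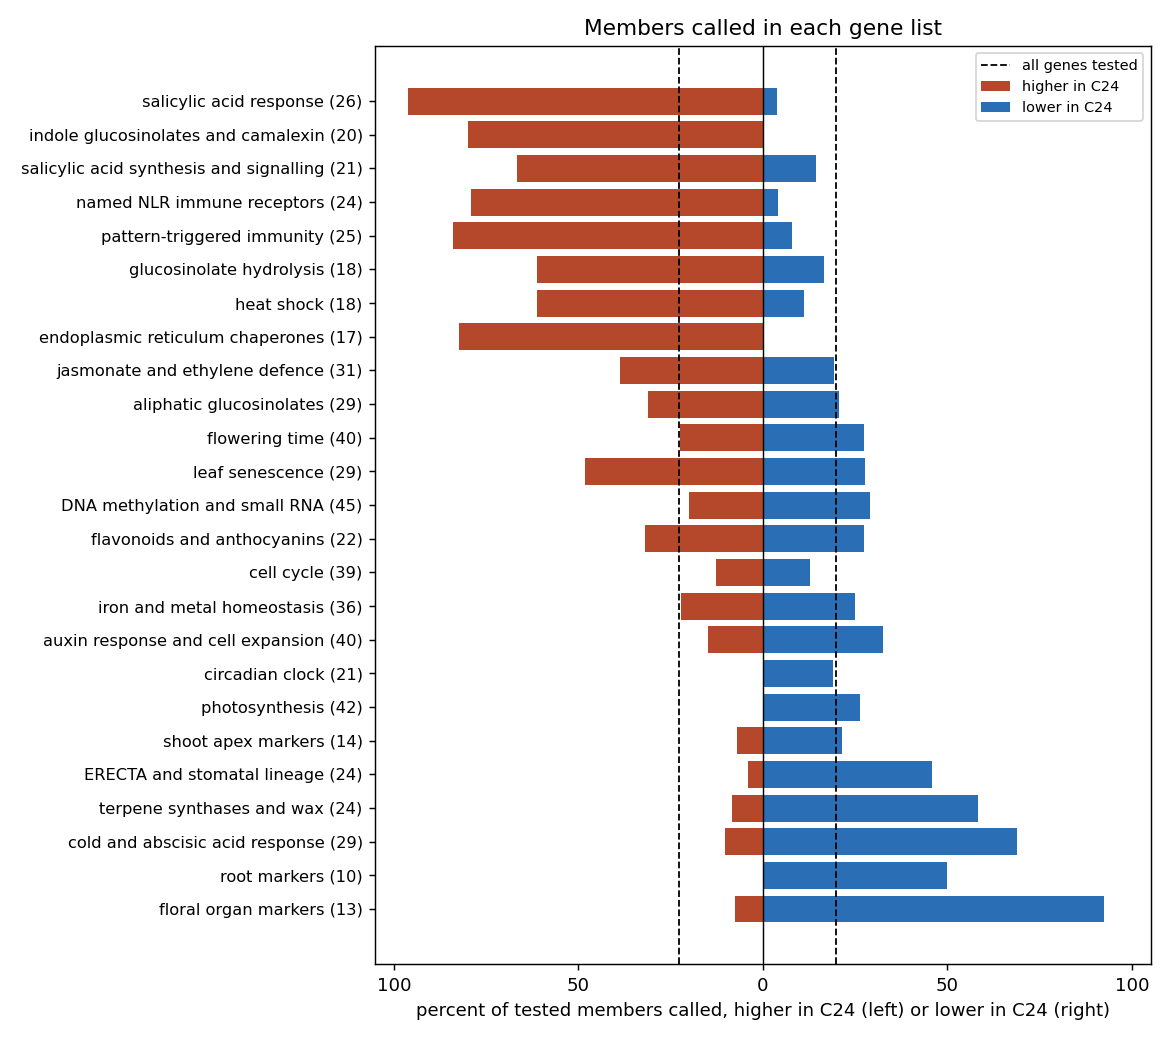
Share of the tested members (number in brackets) of each gene list called higher in C24 (red, to the left) or lower in C24 (blue, to the right), ordered by the median log2 difference. Dashed lines mark the shares over all genes tested, 22.6% and 19.7%. Salicylic acid, receptor, camalexin and chaperone lists extend far to the left, and floral, cold and wax lists to the right.

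Camalexin and indole glucosinolates, defence compounds made from tryptophan, had 16 of 20 genes higher in C24 and none lower, with a median of 1.59. That is 80% called, beside 42.3% of all genes. PAD3 (AT3G26830), the cytochrome P450 of the last camalexin step, had 92.7, 126 and 74.7 CPM in C24 and 4.02, 0.75 and 0.198 CPM in Ler (difference 5.92, SE 0.69, adjusted p = 7.9e-05, and 7.67 without Ler replicate 1). CYP71A13, which acts earlier in that pathway, had 78.9, 107 and 61.9 CPM in C24 and 6.35, 0.434 and 0.437 CPM in Ler (difference 5.14, and 7.55 without Ler replicate 1). The regulator MYB51 averaged 31.6 CPM in C24 and 4.64 CPM in Ler, while MYB34, a related regulator, was not called (-0.33).

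Of 29 aliphatic glucosinolate genes tested, AOP2 and AOP3 included, 9 were higher in C24, 6 lower and 14 not called, with a median of 0.19. The share called was 51.7%, beside 42.3% of all genes. Without C24 replicate 2 or Ler replicate 3 only 3 were lower. MAM1, which elongates the methionine side chain, had 643, 557 and 591 CPM in C24 and 176, 147 and 221 CPM in Ler (difference 1.72, SE 0.23, adjusted p = 7.4e-05). CYP79F1, the first enzyme of the core, and the regulator MYB29 were higher by 0.92 and 1.01, whereas MYB28 was not called (-0.38). The side-chain oxygenases split: FMO-GS-OX2 was higher in C24 by 1.22, and FMO-GS-OX3 and FMO-GS-OX4 were lower, with differences of -1.35 and -1.19. The call for FMO-GS-OX4 (adjusted p = 0.048) was lost in 7 of 12 alternatives, with adjusted p up to 0.19. Among 18 genes of glucosinolate breakdown 11 were higher and 3 lower (median 1.11, 77.8% called, beside 42.3% of all genes). TGG1, the second leaf myrosinase, averaged 4553 CPM in C24 and 1766 CPM in Ler (difference 1.37), and the nitrile specifier NSP1 had 284, 197 and 225 CPM in C24 and 39.3, 36.3 and 54.1 CPM in Ler. ESP, the specifier protein that turns breakdown toward nitriles and epithionitriles, was well read in both, with 5851, 5176 and 5165 CPM in C24 and 4959, 4510 and 3075 CPM in Ler, and its difference of 0.37 was not called (adjusted p = 0.12). ESM1, a modifier of the same step, averaged 60.9 ± 2.22 CPM in C24 and 61.8 ± 21.9 CPM in Ler (SD, n = 3 each), and the groups overlapped. MBP1, a myrosinase-binding protein, varied within C24, with 9.36 ± 8.13 CPM beside 46.3 ± 14.9 CPM in Ler (SD, n = 3 each; difference -2.31, and -3.22 without C24 replicate 1).

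Jasmonate, the hormone of wounding and insect defence, showed no single direction: 12 of 31 genes were higher in C24, 6 lower and 13 not called. The median was 0.38, and 58.1% were called, beside 42.3% of all genes. Lower in C24 were the vegetative storage proteins, of which VSP1 had 28.2, 24.2 and 30 CPM in C24 and 617, 602 and 559 CPM in Ler (difference -4.43, SE 0.13, adjusted p = 2.1e-10), VSP2 (-2.83), and the thionin THI2.1, with 1.32, 0.588 and 0.216 CPM in C24 and 17.5, 32.2 and 15 CPM in Ler (-4.96, and -5.75 without C24 replicate 1). Higher were the ethylene and jasmonate response factor ORA59 (2.17), the response factor ERF1 (3.95, and 4.67 without Ler replicate 1), the defence proteins PR3 (3.90) and PR4 (2.56), and the cyclases AOC1 (1.80) and AOC3 (2.21) of jasmonate synthesis. Within the C24 background VSP1 also varied, at 178 to 179 CPM in C24B and at 904 to 1154 CPM in the C24 NahG libraries.

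Genes of cold and abscisic acid response leaned down in C24, with 20 of 29 lower, 3 higher and 6 not called, and a median of -0.95. That is 79.3% called, beside 42.3% of all genes. KIN2, a small cold-induced protein, had 57.1, 57.9 and 52.7 CPM in C24 and 967, 730 and 656 CPM in Ler (difference -3.81, SE 0.16, adjusted p = 5.3e-09). Its near neighbour KIN1 had 2.22, 3.17 and 2.23 CPM in C24 and 57.9, 57.6 and 31.8 CPM in Ler. RD29A averaged 17.2 CPM in C24 and 216 CPM in Ler (-3.65), and COR15A, a chloroplast protein that protects membranes in frost, 35.1 CPM in C24 and 316 CPM in Ler (-3.17). Of the CBF factors that switch these genes on, CBF3 was lower (-2.09, adjusted p = 0.02, and 0.071 without Ler replicate 2), while CBF1 (-1.16) and CBF2 were not called, CBF2 having 1.02, 0.274 and 0.503 CPM in C24 and 1.21, 1.94 and 0.675 CPM in Ler. The zinc finger genes ZAT10 (2.19, and 2.81 without Ler replicate 1) and ZAT12 (1.83) were the strongest exceptions.

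Of 40 flowering-time genes tested 9 were higher in C24, 11 lower and 20 not called, with a median of -0.01. The 50% called was near the 42.3% of all genes. FLC (AT5G10140), the MADS-box repressor of flowering, had 22.1, 22.2 and 23.5 CPM in C24 and 0, 0 and 0.119 CPM in Ler, that is 1739 against 3 reads, a ratio of 550 (95% exact counting interval 188 to 2670). FRI, which raises FLC, had 4.48, 5.68 and 5.29 CPM in C24 and 1.34, 1.26 and 0.873 CPM in Ler (difference 2.15, SE 0.21, adjusted p = 4.8e-06). Within the FLC clade the sign varied: MAF4 was higher in C24 by 4.30, MAF1 had 0.427, 0.588 and 0.467 CPM in C24 and 14.5, 14.1 and 15.5 CPM in Ler (-4.88), MAF2 was lower (-1.51) and MAF3 was not called (0.03). Among the genes that promote flowering, SOC1 averaged 14.2 CPM in C24 and 126 CPM in Ler (-3.14), FUL 3.34 CPM in C24 and 28.2 CPM in Ler (-3.08), and FT, the mobile flowering signal, 0.0546 CPM in C24 and 1.6 CPM in Ler (-4.79, and -4.20 without C24 replicate 3). Not called was, among others, the RNA-processing factor HUA2 with 19.9 ± 0.648 CPM in C24 and 24.3 ± 3.25 CPM in Ler (SD, n = 3 each). FRL1, a relative of FRI, was called at 0.36 (adjusted p = 0.049) but lost the call in 10 of 12 alternatives, with adjusted p up to 0.17.

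The Ler rosettes carried transcripts of floral organs. The 16 floral organ markers summed to 14.2, 19.7 and 11.6 CPM in C24, against 189, 146 and 131 CPM in Ler, with 2 to 3 markers at 0 in each C24 library and none at 0 in Ler. Of 13 tested, 12 were lower in C24 and SEP4 was higher (1.59), beside 42.3% of all genes called in either direction. Markers with almost no reads in C24 could pass the filter on low counts only through other groups, so this count is a description. AP1, the gene of floral meristems, had 0.0427, 0.823 and 0.036 CPM in C24 and 23, 17.5 and 15 CPM in Ler (difference -5.92, and -8.70 without C24 replicate 2), and the petal and stamen gene PI averaged 0.495 CPM in C24 and 22.7 CPM in Ler (-5.50, and -7.32 without C24 replicate 2). Hybrid libraries summed to 15.1 to 16.1 CPM and Ler NahG libraries to 91.5 to 186 CPM. In pooled rosettes, more cells of a type and more RNA per cell cannot be told apart. Summed shoot apex markers overlapped, at 231, 201 and 230 CPM in C24 and 144, 255 and 282 CPM in Ler. Of 14 tested, 3 were lower in C24, 1 higher and 10 not called, with a median of -0.38. The share called, 28.6%, was below the 42.3% of all genes. The groups did not overlap for 7 of the 14, beside 55.8% of all genes. Only 1 was lower without C24 replicate 2 or without Ler replicate 2. WUS, which maintains stem cells, had 1 read over C24 and 97 over Ler, a Ler to C24 ratio of 102 (95% exact counting interval 17.9 to 4078). The meristem gene STM spanned 22.7 to 25.3 CPM in C24 and 9.7 to 48.5 CPM in Ler. Root markers, of which 8 of 18 did not pass the filter, summed to 40.4 to 41.7 CPM in C24 and 61.9 to 88.7 CPM in Ler, with 6 to 7 of 18 at 0 in C24 and 3 to 5 in Ler.

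Several genes with wide falls in C24 are known from anthers and pollen. MS2 (AT3G11980), which makes fatty alcohols for the pollen wall, had 0.0427, 0.0392 and 0 CPM in C24 and 39.2, 15.3 and 116 CPM in Ler. CYP704B1, a hydroxylase of the same wall polymer, had 0 reads in C24 and 14, 10.4 and 54.9 CPM in Ler. The pollen-coat oleosin GRP17 had 0, 0.0392 and 0.144 CPM in C24 and 150, 193 and 41.3 CPM in Ler. Lipid transfer proteins LTP12 and A7 had 1 read each over C24, and 94.1, 54.9 and 2.26 CPM and 70.7, 22 and 19.3 CPM in Ler. The order of the Ler libraries differed from gene to gene, and MS2, CYP704B1, LTP12 and A7 had 0 to 9 reads over the 3 hybrid libraries. The calls for SWEET3 and GRP16, also among the largest falls, were lost in 5 and 6 of 12 alternatives, with adjusted p up to 0.055 and 0.099.

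Cuticular wax and terpene genes were lower in C24 in 14 of 24 cases and higher in 2, with a median of -0.58. That is 66.7% called, beside 42.3% of all genes. MAH1, the P450 that oxidises stem wax alkanes, had 0.171, 0.47 and 0.216 CPM in C24 and 14.9, 193 and 206 CPM in Ler (difference -8.89, SE 1.5, adjusted p = 0.00087), with Ler replicate 1 far below the other two. WSD1, a wax ester synthase, had 0.939, 0.94 and 1.11 CPM in C24 and 24.4, 55.3 and 47.9 CPM in Ler, and CER1, of alkane synthesis, averaged 36 CPM in C24 and 275 CPM in Ler (-2.94). MAH1 was also at 0.245 ± 0.0863 CPM in the hybrid (SD, n = 3). Floral marker sums were highest in Ler replicate 1 (189, 146 and 131 CPM over the Ler libraries), where MAH1 and WSD1 were lowest. Like this list those sums were lower in C24, and their part in it was not tested. Their part was also not tested for the argonautes AGO5 and AGO9, the widest falls in the DNA methylation and small RNA list. These argonautes averaged 0.0914 and 0.356 CPM in C24 and 6.23 and 8.98 CPM in Ler. Without C24 replicate 2 their differences were -10.18 and -5.34, beside -6.01 and -4.65 with it. In that list 9 of 45 genes were higher and 13 lower, with a median of -0.05, and 48.9% called was near the share of all genes. Without C24 replicate 1, 2 or 3 there were 5, 5 and 4 higher. The histone demethylase IBM1, which keeps methylation out of genes, had 25.5, 25.5 and 25.7 CPM in C24 and 11.6, 12.1 and 11.2 CPM in Ler (1.14), while the methyltransferases MET1 (-0.05), CMT3 (0.22) and DRM2 (-0.02) were not called.

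Of 42 photosynthesis genes 11 were lower in C24, 0 higher and 31 not called, with a median of -0.27. The share called, 26.2%, was below the 42.3% of all genes, and without Ler replicate 1 there were 8 lower and 3 higher. LHCB1.1, a chlorophyll-binding antenna protein, had 591, 419 and 513 CPM in C24 and 2819, 1909 and 1634 CPM in Ler (difference -2.06), and LHCA3, of the other photosystem, averaged 2018 CPM in C24 and 4223 CPM in Ler (-1.07). LHCB1.1 belongs to a set of near-identical copies, among which reads can be split. The summed level of the list overlapped between groups, at 98296 to 108855 CPM in C24 and 106985 to 165123 CPM in Ler, with the highest in Ler replicate 1. Clock genes were called in 4 of 21 cases (19%, beside 42.3% of all genes), all 4 lower, and 2 without C24 replicate 2. RVE1 (-1.46) and LHY (-0.94) were the widest, and TOC1 (0.06) and PRR5 (0.10) were not called. Cell-cycle genes had 5 higher and 5 lower of 39 (25.6% called, below the 42.3% of all genes). Their median was -0.06, and 11 were lower without Ler replicate 1. CDKB1;2 was the widest, at 4.22, 5.88 and 7.15 CPM in C24 and 0.447, 0.75 and 1.27 CPM in Ler (2.79).

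Flavonoid genes moved both ways. Lower in C24 were, among others, chalcone synthase TT4 (-1.42), TT7 (-1.33), flavonol synthase FLS1 (-1.59) and the flavonol rhamnosyltransferase UGT78D1, which had 4.22, 4.03 and 5.07 CPM in C24 and 61.6, 71.1 and 63.7 CPM in Ler (-3.88, SE 0.13, adjusted p = 8.7e-10). Among those higher were genes of late anthocyanin steps, namely DFR (1.68), LDOX (1.57), TT19 (1.21) and 5MAT (1.76), as was the regulator MYB113 (3.71, and 5.99 without Ler replicate 3). In all 7 of 22 were higher and 6 lower, that is 59.1% called, beside 42.3% of all genes. Among senescence genes 14 of 29 were higher and 8 lower (median -0.04, 75.9% called). Without C24 replicate 2, C24 replicate 3 or Ler replicate 1 there were 5 lower. NAC016, a promoter of leaf ageing, had 19, 18.3 and 16.6 CPM in C24 and 1.07, 0.908 and 1.27 CPM in Ler (4.04), and ORE1 was higher by 1.16. SAG29, a sugar transporter, had 3 reads over C24 and 213 over Ler, a Ler to C24 ratio of 74.8 (95% exact counting interval 25.3 to 366). The 6 later C24 libraries, however, held 1848 reads of SAG29, so its low level was not shared by the C24 background as a whole. GLN1;4 (-2.10) and DIN10 (-1.57, adjusted p = 0.048) were lower, and DIN10 lost its call in 7 of 12 alternatives, with adjusted p up to 0.16. NAP (-0.26) was not called, and SAG12, the marker of late senescence, had 0 reads in all 6 libraries. Several of the higher members, such as SAG13 (3.81, and 4.87 without Ler replicate 1) and SAG101 (1.09), also stand in the salicylic acid lists.

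ERECTA itself (ER, AT2G26330) was read in both accessions, with 92, 87 and 99.3 CPM in C24 and 120, 152 and 134 CPM in Ler (difference -0.54, SE 0.11, adjusted p = 0.0022). Its relatives ERL1, at 3.67, 3.96 and 4.49 CPM in C24 and 13.1, 14.1 and 11 CPM in Ler (-1.66), and ERL2 (-0.54) were lower too, as was TMM (-1.19), their partner in the stomatal lineage. ERL2 lost its call in 4 of 12 alternatives, with adjusted p up to 0.14. In that list 11 of 24 were lower and 1 higher (median -0.54), and the share called was 50%, beside 42.3% of all genes. Without C24 replicate 1, C24 replicate 3 or Ler replicate 3 there were 0 higher, and without Ler replicate 1 there were 2. Among 40 auxin and cell expansion genes 13 were lower and 6 higher (median -0.22), and the 47.5% called was near the share of all genes. The growth regulator PIF4 was not called, at 63.5, 49.5 and 58.8 CPM in C24 and 66.2, 77 and 72.2 CPM in Ler (-0.33, adjusted p = 0.093). Iron and metal genes had 8 of 36 higher and 9 lower (median -0.17), and the 47.2% called was near the share of all genes. YSL3, a transporter of metal chelates, had 103, 108 and 91.4 CPM in C24 and 23.5, 12.4 and 14.6 CPM in Ler (2.58), the iron superoxide dismutase FSD1 averaged 335 CPM in C24 and 84.4 CPM in Ler (1.99), and the metal ATPase HMA4 was lower (-1.23).

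Across whole annotated families the share called ran from 15.8% of 311 tested ribosomal protein genes to 78.3% of NLR genes. Ribosomal proteins had 21 higher and 28 lower (18 lower without C24 replicate 1 or C24 replicate 3), a median of -0.02, and 3.22% called with at least 2-fold. F-box genes, of which 247 of 780 passed the filter, had 56 higher and 47 lower, 41.7% called, beside 42.3% of all genes. Their extremes were wide: AT1G27540 had 0.171, 0.274 and 0.0719 CPM in C24 and 129, 121 and 117 CPM in Ler, and AT5G56380 had 12.7, 10.8 and 14.5 CPM in C24 and 0 reads in Ler, at least 309-fold higher in C24. Glutathione transferases had 24 of 44 higher and 10 lower (median 0.53), cytochromes P450 48 of 154 higher and 44 lower (0.12), and UDP-glycosyltransferases 35 of 96 higher and 20 lower (0.26). Their shares called were 77.3%, 59.7% and 57.3%, beside 42.3% of all genes. Histone genes had 3 of 40 higher and 14 lower (median -0.18), and 9 lower without C24 replicate 1. The 42.5% of them called was near the 42.3% of all genes. Thionin genes included AT1G66100, with 76.4, 70.5 and 76.5 CPM in C24 and 0.313, 0.237 and 0.119 CPM in Ler. Of 166 tested pseudogene entries 74.7% were called, 73 higher and 51 lower. Of 187 long noncoding RNA entries 47.1% were called, near the 42.3% of all genes. For entries read in only 1 accession, passing the filter required a difference, so these shares are a description.

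Genes that may be absent from an accession, or too diverged to align, were listed by a size rule: at least 1 CPM in each library of an accession and at most 3 reads summed over the 3 libraries of the other. The rule gave 131 genes for C24 (0.351% of all rows) and 126 for Ler (0.337%). For C24 these were 86 protein-coding genes, 31 pseudogenes and 14 noncoding RNAs, with levels from 1.1 to 103 CPM and a median of 3.15 CPM. For Ler they were 101 protein-coding genes, 20 pseudogenes and 5 noncoding RNAs, from 1.16 to 63.4 CPM with a median of 4.67 CPM. At the edge of the rule, 14 genes read in C24 had exactly 3 Ler reads and 56 more had 4 to 6, and 17 genes read in Ler had exactly 3 C24 reads and 36 more had 4 to 6.

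Libraries that the rule did not use separated the lists further. Of the 131 genes read in C24, 114 also had at most 3 reads summed over the 3 Ler NahG libraries. Of the same 131, 72 reached 1 CPM in each of the 6 later C24 libraries, which include 2 of each of 2 NahG lines. CRK4, for example, averaged 98.7 CPM in C24B, 1.23 CPM in C24 NahG 2 and 0.747 CPM in C24 NahG 3. The part of the transgene in this count was not tested. Of the 126 genes read in Ler, 109 had at most 6 reads summed over the 6 later C24 libraries, and 94 reached 1 CPM in each Ler NahG library. Both conditions held for 60 and 83 genes. In the hybrid the ratio of its level to that of the accession with reads had a median of 0.38 for genes read in C24 and 0.047 for genes read in Ler, and it lay from 0.25 to 0.75 for 77 and 46 genes. At most 3 hybrid reads were found for 15 genes read in C24 and 56 read in Ler, among them CYP704B1, LTP12, A7, GRP16 and SWEET3. Floral marker sums were 15.1 to 16.1 CPM in the hybrid, beside 11.6 to 19.7 CPM in C24, and their part in that count was not tested.

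**Figure D5:**
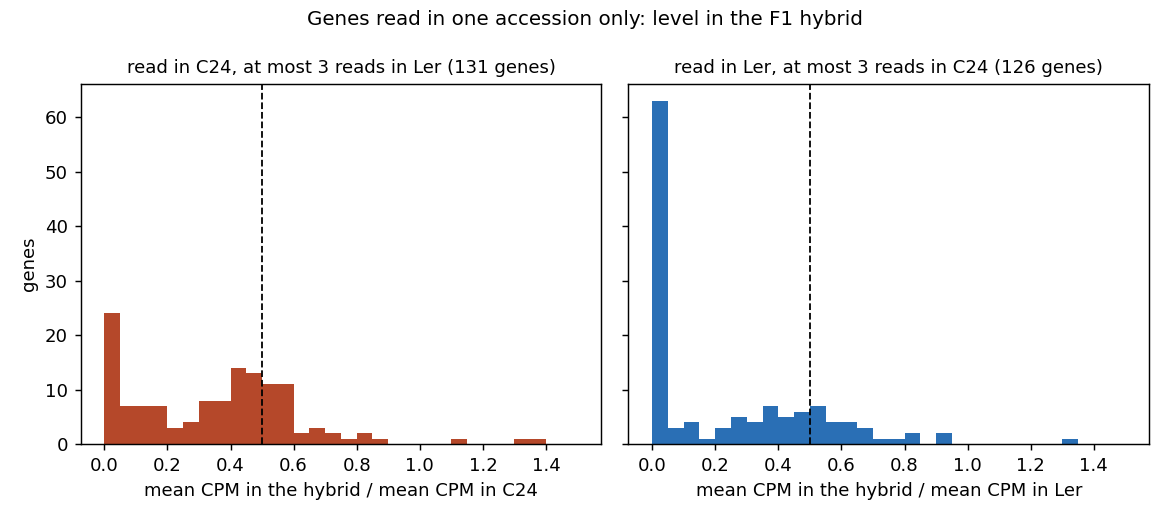
Genes read in C24 but not Ler (left, red, 131 genes) and in Ler but not C24 (right, blue, 126 genes), by the level in the F1 hybrid divided by the level in the accession with reads (horizontal axis, bins of 0.05; vertical axis, genes). The dashed line marks 0.5, the ratio of a gene read at the same rate from 1 of 2 parental copies. Many genes of both lists sit around the line, and a peak near 0, taller for genes read in Ler, holds genes hardly read in the hybrid.

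Among the highest of the genes read in C24, AT3G43740, a leucine-rich repeat protein, had 30.3, 32.4 and 31.8 CPM in C24, 2 reads over Ler, 22.5 to 26 CPM in the later C24 libraries and 12.5 CPM on average in the hybrid, a ratio of 0.40. AT4G07965, an uncharacterized protein, had 26.8, 27.9 and 25.2 CPM in C24 and a hybrid ratio of 0.51. The retroelement-type pseudogene SADHU3-2 had 22.3, 24.3 and 27.4 CPM in C24 and a hybrid ratio of 0.37. FLC stood in this list too, with a hybrid ratio of 0.66. CRK4 (0.11) and ALD1 (0.029), a gene of pipecolic acid synthesis in the salicylic acid response list, had lower ratios. The 3 Ler NahG libraries held 13 reads of SADHU3-2, 10 of FLC and 4 of AT3G43740, more than the 3 allowed above. Those libraries held 2 reads of AT4G07965, 3 of CRK4 and 0 of ALD1. Among the genes read in Ler, AT4G19240, an uncharacterized protein, had 40.7, 48.4 and 45.8 CPM in Ler, 1 read in C24, 38.7 to 51.1 CPM in Ler NahG and a hybrid ratio of 0.40, and its reference neighbour AT4G19239 had 5.81, 5.96 and 6.15 CPM in Ler and 0 reads in C24. AT1G58235 (0.56) and the cytochrome P450 gene CYP71A25 (0.51) had ratios near the middle as well, and RPM1 stood at 0.82. The 6 later C24 libraries held 10 reads of AT1G58235 and 7 of CYP71A25, more than the 6 allowed above, and 0 of AT4G19240 and RPM1. CSLA01, a cellulose synthase-like gene, met the rule with 777 reads in Ler and 1 in C24, while the 6 later C24 libraries held 3262 reads of it.

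Few of these genes were neighbours. Those read in C24 held 4 runs of adjacent genes with 8 genes in all, and those read in Ler held 5 runs with 10 genes. AT5G37120 and AT5G37125 made up a run read in C24, at 3.03, 3.09 and 3.24 CPM and at 1.07, 1.29 and 1.58 CPM, with 0 reads in Ler. AT3G43340, a pseudouridine synthase gene, and AT3G43350 made up a run read in Ler, at 6.71, 8.73 and 10.3 CPM and at 3.35, 6.32 and 6.31 CPM, with 1 and 0 reads in C24.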

How the data were processed

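Rosette RNA was made into TruSeq libraries and, per the submitters' processing notes, handled with STAR 2.5.3 and TAIR10, with DESeq2 also named; the strand setting is not given in the sources used here. The deposited values are whole-number read counts per gene, not normalized by the authors. The 5 rows that name no gene (unmapped, multimapping, no feature, ambiguous and a total) were left out; unmapped reads were at most 9.32% and ambiguous reads at most 4.74% of a library. Of 37336 gene rows, 37051 matched the RefSeq TAIR10.1 gene table, used only for names, descriptions and neighbour order. Reads of near-identical copies, overlapping genes and antisense partners cannot be told apart here.

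Counts were fitted with edgeR 4.0.16 (TMM scaling, filterByExpr, robust quasi-likelihood F test) over 12 first-stage libraries of 4 groups (C24, hybrid, Ler NahG, Ler), which share one estimate of spread (common biological coefficient of variation 0.166). A call is an adjusted p under 0.05. The same steps on simulated counts of 20325 genes recovered 67% of genes changed 2-fold and 97% of those changed 4-fold, with 11 false calls and 2 wrong signs. Only 200 genes were changed there, all of them better-read ones. In the data 8604 genes were called, so these rates need not hold for them or for low genes. Ratios with few reads carry 95% exact intervals, which like the floor of 3 reads (0.039 CPM over C24, 0.041 CPM over Ler) cover counting error only. Alternatives were RLE scaling, DESeq2 1.42.0, 2 other filters, the 6 libraries alone, a replicate block and leaving out each library. Gene lists (25, with 726 of 749 symbols matched), 13 families taken by keywords in gene descriptions, and the comparison were chosen with earlier results of these data known. Genes named were the 12 largest rises and falls among called genes that have symbols, do not overlap and average 1 or more in log2 CPM, up to 3 members per list and direction, genes of a fixed list, the highest and the adjacent genes read in one accession, and the called genes of smallest error; other list members are examples picked after their values were seen. Among the genes the rule names, 1 is not reported here.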

Additional observations from a re-analysis of the deposited data

How the results depend on the processing

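Calls numbered 8336 with the 6 libraries alone, 8947 with DESeq2, 8677 with RLE scaling, 8034 with at least 1 CPM in 3 libraries, 8834 without a filter, and 7072 to 8531 when a library was left out, beside 8604. With a replicate block there were 8358. No gene called both in the main fit and in one of these alternatives changed sign between them. Signs of genes that lost the call were not counted. Deviations of same-numbered C24 and Ler libraries from their group means had correlations of 0.07, -0.14 and 0.07, and the main fit did not pair them. Over all pairs of first-stage groups such correlations ran from -0.19 to 0.47. With 3 libraries per group these values cannot exclude a shared batch. Of 2924 values of genes picked by the naming rule under alternatives, 2847 kept direction and side of the threshold, 73 lost the call, 4 gained one and 0 reversed; 19 of these genes lost a call somewhere, and so did FMO-GS-OX4, DIN10, ERL2 and CBF3, named as examples outside that tally. Genes read in C24 only numbered 53 with 0 reads allowed in Ler, 221 with at most 10 and 46 at 5 CPM or more; those read in Ler only numbered 57 with 0 reads allowed and 32 at 5 CPM or more. Called long noncoding RNAs numbered 58 with the 1 CPM filter and 149 without a filter, and pseudogene entries 189 without a filter. Called root markers numbered 3 with the 6 libraries alone. Leaving out a library gave 2 to 5 called clock genes (2 without C24 replicate 2), 9 to 16 cell-cycle genes (16 without Ler replicate 1) and 1 to 4 shoot apex markers (1 without Ler replicate 2, 2 without C24 replicate 2). The causes were not tested. Depth limits low genes: 3 reads over a group are 0.039 CPM in C24 and 0.041 CPM in Ler.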

Other observations

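Some differences lay side by side. Runs of at least 4 neighbouring tested genes, all called with at least 4-fold difference in one direction, numbered 20 (13 higher and 7 lower in C24) and held 98 of the 2124 genes called at that size; this search was chosen after the data were seen. The longest held 8 genes, AT1G23560 to AT1G23690, all lower in C24. Runs of cysteine-rich receptor-like kinases (CRK36 to CRK40, and 6 genes from CRK12 to CRK16) were higher, and the pollen-coat genes GRP14 to GRP20, 6 genes, were lower. Neighbouring family members can share reads.

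Of 75 tested plastid-encoded genes 21 were lower in C24 and 0 higher (median log2 difference -0.64). Over all genes tested 19.7% were lower and 22.6% higher. Plastid-encoded genes held only 0.0156% to 0.0182% of reads in C24 and 0.0233% to 0.0255% in Ler. Of 152 mitochondrion-encoded genes only 17 were tested, and 9 were higher and 1 lower (median 1.02). Their read shares were smaller still and overlapped, at 0.0036% to 0.00518% in C24 and 0.00306% to 0.00433% in Ler.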
